A study of Drosophila melanogaster with 14 samples.

Results

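The 4 libraries of labelled stages 4 and 5 of Drosophila melanogaster embryonic development, out of 14 small RNA libraries in the series, were set against the libraries before and after them. They were chosen by their stage label alone, and the question was which microRNA arms stood above or below both outer groups in the middle of the time course. Each library was made from whole embryos, and each of the 7 stages had 2 libraries. The middle group held stage 4 at 645 minutes and stage 5 at 930 minutes. The earlier group held 6 libraries, of stage 1 at 160 minutes, stage 2 at 300 minutes and stage 3 at 530 minutes. The later group held 4 libraries, of stage 6 at 1160 minutes and stage 7 at 1300 minutes. The labels give no strain, genotype or treatment, and do not say from which point the minutes run. Nothing in them tells whether both libraries of a stage are separate collections of embryos, so p-values measure only the spread between these libraries, which may be technical.

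MicroRNAs are short RNAs cut from a hairpin precursor, and each hairpin can give a 5p and a 3p arm. One arm is usually kept by Argonaute and guides it to messenger RNAs that match its seed, while the other arm is mostly degraded. In fly embryos, microRNAs of the miR-309 cluster appear with the onset of zygotic transcription and help clear maternal messages, and tissue-restricted microRNAs such as the neural miR-124 and the muscle miR-1 appear as organs form.

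The authors' counts per arm summed to 33956 and 66072 in the stage 4 libraries and to 32538 and 31330 in the stage 5 libraries, against 25271 to 48151 in stages 1 to 3 and 17462 to 72507 in stages 6 and 7. Of 466 arms in the table, 215 had no count in any library, and 85 passed the filter on low counts and were tested. These 85 arms held at least 99.4% of the counts of every library. Levels below are depth-scaled counts (CPM) with TMM scaling, which assumes that most arms do not change between libraries. Against stages 1 to 3 this was not met, as 60 of the 85 arms were called there, with a median log2 fold change of 0.71. The TMM factors were 1.16 to 1.57 in stages 4 and 5, 0.595 to 0.806 in stages 1 to 3 and 1.17 to 1.38 in stages 6 and 7. A TMM-scaled CPM is therefore not a share of a library, and 1 count was worth 11.8 to 25.6 CPM in the middle libraries. Over the 85 arms, log2 CPM correlated at 0.807 to 0.966 among the middle libraries (median 0.920, 6 pairs). With the later libraries it correlated at 0.704 to 0.965 (median 0.906, 16 pairs), and with the earlier ones at 0.422 to 0.883 (median 0.673, 24 pairs). As the tissue was whole embryos, a lower level may mean fewer cells of a type or less RNA per cell, and these cannot be told apart.

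Few arms were called transient. Of the 85 tested arms, 3 stood outside both outer groups (3.53%), with 1 above both (1.18%) and 2 below both (2.35%). These calls required an adjusted p under 0.05 against stages 1 to 3 and, separately, against stages 6 and 7, by edgeR's quasi-likelihood test with Benjamini-Hochberg adjustment over all 85 arms. The arm above both was miR-124-5p, and the arms below both were miR-33-5p and miR-970-3p. The group mean of stages 4 and 5 lay between the outer means for 63 arms (74.1%), above both for 14 (16.5%) and below both for 8 (9.41%). None of the 85 arms had its 4 middle libraries above all 10 outer libraries, and 1 arm, miR-970-3p, had them below all 10 (1.18%). With library size alone in place of TMM, 0 arms lay above all 10 and 0 below all 10. The arms above both numbered 0 without stage 6 replicate 1, 3 without stage 3 replicate 1, and 2 without stage 4 replicate 1 or stage 7 replicate 2. Of the arms below both, 2 were called without stage 7 replicate 2, and 1 without either stage 3 library, stage 4 replicate 2 or stage 6 replicate 2. With any other single library left out, 0 arms were below both by edgeR.

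**Figure D1:**
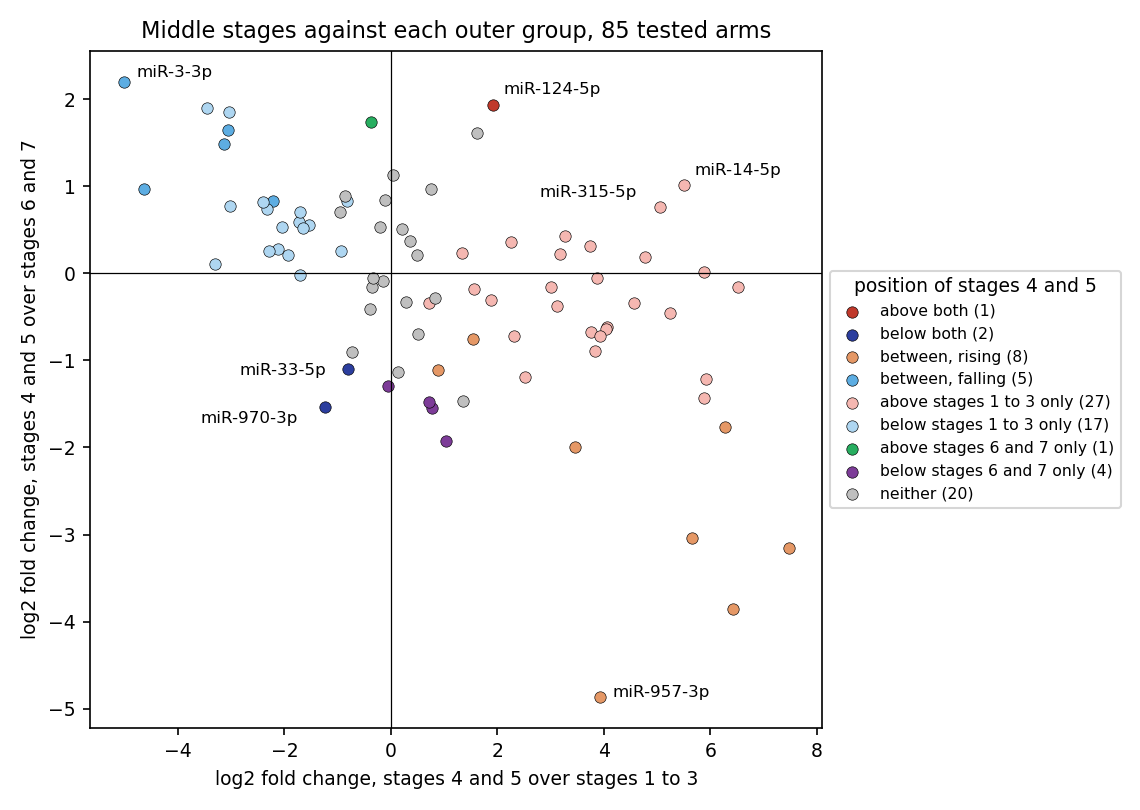
Each point is 1 of the 85 tested arms, with the fitted log2 fold change of stages 4 and 5 over stages 1 to 3 on the x axis and over stages 6 and 7 on the y axis, coloured by the calls against each group. The upper right corner, where transient rises would lie, holds 1 called arm (miR-124-5p), and the lower left corner holds 2 (miR-33-5p and miR-970-3p). Fitted values of arms with few or no counts in stages 1 to 3, at the far right, depend on the prior count.

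miR-124-5p is an arm of the conserved nervous system hairpin mir-124, whose 3p arm is the usual guide. The hairpin lies at 2L:17566370-17566469 on the plus strand of dm6, outside any annotated host gene. miR-124-5p had 1535 and 1695 CPM in the stage 4 libraries and 951 and 532 CPM in the stage 5 libraries. In stages 1 to 3 the lowest library had 0 CPM, the median was 525 CPM and the highest had 1775 CPM. In stages 6 and 7 the libraries had 346, 413, 151 and 272 CPM. All 4 middle libraries were above all 4 later ones, but they overlapped the earlier ones, with both stage 2 libraries, at 1775 and 1453 CPM, and stage 3 replicate 2, at 917 CPM, within or above the range of stages 4 and 5. The stage means ran from 28.6 CPM in stage 1 through 1614 CPM in stage 2, 525 CPM in stage 3, 1615 CPM in stage 4 and 741 CPM in stage 5 to 379 CPM in stage 6 and 211 CPM in stage 7. The profile thus had 2 high stages of nearly the same level, stage 2 and stage 4.

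The log2 fold change of miR-124-5p in the middle stages was 1.92 ± 0.542 (SE) against stages 1 to 3, with an edgeR adjusted p of 0.00347. Against stages 6 and 7 it was 1.94 ± 0.489, with an edgeR adjusted p of 0.00845. The 2 stage 1 libraries held 0 and 1 counts of the arm, and the fit averages stages on the log scale. With 1 coefficient per group in place of 1 per stage, the log2 fold change against stages 1 to 3 was 0.69 with an edgeR adjusted p of 0.442, which ended the call. Set against stage 3 alone and stage 6 alone, the nearest outer stages, the log2 fold changes were 1.09 and 1.5 with edgeR adjusted p of 0.149 and 0.107. Leaving out stage 1 replicate 2 gave a log2 fold change of 2.97 against stages 1 to 3. Leaving out stage 6 replicate 1 ended the call against stages 6 and 7, with a log2 fold change of 1.85 and an edgeR adjusted p of 0.0519. The partner arm miR-124-3p was below the filter, with 27 counts in the 4 middle libraries, 4 in the 6 earlier and 26 in the 4 later ones. Of the pooled library totals these were 165 CPM in the middle, 19 CPM earlier and 130 CPM later. The exact 95% counting intervals of the middle and later levels overlapped, at 109 to 240 CPM and 85.1 to 191 CPM. The 5p arm held 91% of mir-124 counts in the middle, 96.4% earlier and 72.3% later. Thus the arm called above both was the more counted one, though the 3p arm is the usual guide. The 3 tested arms with the profile most like miR-124-5p, by Pearson correlation of log2 CPM over the 14 libraries, were miR-263a-3p at 0.835, miR-9a-5p at 0.802 and miR-1002-3p at 0.668. miR-263a-3p also had the fold changes nearest to those of miR-124-5p without being called, at 1.61 ± 1.08 against stages 1 to 3 and 1.62 ± 0.711 against stages 6 and 7 on the log2 scale. Its edgeR adjusted p were 0.184 and 0.0940, on 49 counts in the middle libraries. The levels of miR-263a-3p averaged 193 CPM in the middle, 211 CPM in stages 1 to 3 and 54.9 CPM in stages 6 and 7. Its highest stage mean was in stage 2, at 446 CPM. Both stage 1 libraries held 0 counts of it, so its fold change against stages 1 to 3 depends on the prior count.

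miR-33-5p is cut from an intron of SREBP, the gene of a transcription factor of lipid synthesis, and miR-33 is known to act on lipid metabolism in flies and mammals. Its hairpin lies at 3L:19797961-19798059 on the plus strand of dm6. It had 307 and 695 CPM in the stage 4 libraries and 1017 and 594 CPM in the stage 5 libraries. The earlier libraries ran from 693 CPM to 1658 CPM, with a median of 1217 CPM, and the later ones had 1644, 1514, 1427 and 984 CPM. The middle group averaged 653 ± 293 CPM (SD, n = 4), against 1176 ± 365 CPM in stages 1 to 3 (n = 6) and 1392 ± 286 CPM in stages 6 and 7 (n = 4). A single middle library, stage 5 replicate 1, overlapped the later group, and it and stage 4 replicate 2 overlapped the earlier one. The log2 fold changes were -0.81 ± 0.353 against stages 1 to 3 and -1.10 ± 0.372 against stages 6 and 7, with edgeR adjusted p of 0.0458 and 0.0349. With no TMM scaling the fold change against stages 1 to 3 was 0.15, of the other sign, with an edgeR adjusted p of 0.684. Without 1 library at a time, the arm was below both groups in 2 of 14 fits, with edgeR adjusted p of up to 0.101 against stages 1 to 3 and up to 0.222 against stages 6 and 7.

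miR-970-3p is cut from an intron of Tomosyn, which encodes a SNARE-binding protein of synaptic vesicle release, and its hairpin lies at X:12636336-12636430 on the plus strand of dm6. It had 153 and 141 CPM in the stage 4 libraries and 133 and 246 CPM in the stage 5 libraries. The earlier libraries ran from 279 CPM to 661 CPM, with a median of 364 CPM, and the later ones had 649, 568, 523 and 259 CPM. On the TMM scale every middle library was lower than every outer one, and the nearest outer value, 259 CPM in stage 7 replicate 2, was close to the highest middle value. As a share of counts this separation was lost, since stage 5 replicate 2 held 0.0383%, against 0.0198% to 0.0392% in stages 1 to 3 and 0.0303% in stage 7 replicate 2. These levels rest on 6 and 12 counts in the stage 4 libraries and 6 and 12 in the stage 5 libraries. The log2 fold changes were -1.24 ± 0.459 against stages 1 to 3 and -1.53 ± 0.467 against stages 6 and 7, and edgeR gave an adjusted p of 0.0222 for each. With no TMM scaling the fold change against stages 1 to 3 was -0.25 with an edgeR adjusted p of 0.608, and with DESeq2 it was -0.86 with an adjusted p of 0.140. Both calls held in 4 of 14 fits that left out 1 library. The profile most like it over the 14 libraries was that of miR-33-5p, with a Pearson correlation of 0.658, followed by miR-986-5p at 0.446 and miR-957-3p at 0.376. miR-986-5p was the next lowest arm that was not called, at -0.73 ± 0.458 against stages 1 to 3 and -0.90 ± 0.476 against stages 6 and 7 on the log2 scale, with edgeR adjusted p of 0.160 and 0.158.

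The calls of miR-33-5p and miR-970-3p against stages 1 to 3 were made with TMM and lost with library size alone. Arm by arm, that scaling raised the log2 fold change against stages 1 to 3 by a median of 0.96 over TMM, across the 85 arms. Against stages 6 and 7, the median shift per arm with library size alone was 0.04.

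**Figure D2:**
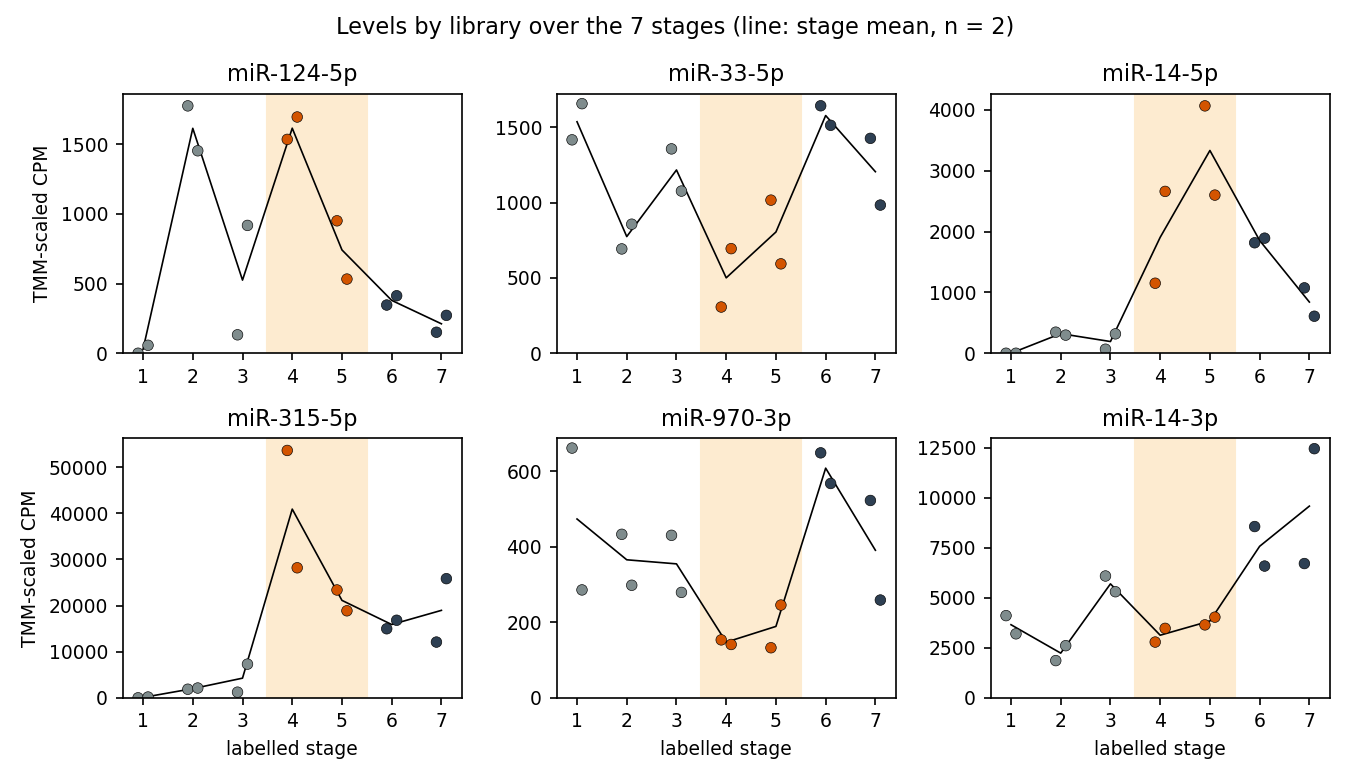
TMM-scaled CPM of 6 arms in each library against the labelled stage, with the 4 libraries of stages 4 and 5 shaded and a line through the stage means (n = 2). miR-124-5p is as high in stage 2 as in stage 4, miR-315-5p and miR-14-5p have their highest stage mean in stage 4 and stage 5, and miR-33-5p and miR-970-3p have their lowest in stage 4.

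Against stages 1 to 3 taken alone, 60 of the 85 arms differed in the middle stages (70.6%), 36 of them higher (42.4%) and 24 lower (28.2%), by edgeR with Benjamini-Hochberg adjustment. Against stages 6 and 7, 21 arms differed (24.7%), 7 of them higher (8.24%) and 14 lower (16.5%). The median log2 fold change over the 85 arms was 0.71 against stages 1 to 3 and -0.02 against stages 6 and 7. Sorted by both comparisons, 27 arms (31.8%) were above stages 1 to 3 and not called against stages 6 and 7, and 17 arms (20%) were below stages 1 to 3 only. Another 8 arms lay between the outer groups with a call on each side and rose over time, and 5 lay between them and fell. In 4 arms the middle stages were lower than stages 6 and 7 only, in 1 arm they were higher than stages 6 and 7 only, and 20 arms (23.5%) had no call in either comparison. Of the calls, 60% were higher against stages 1 to 3 with TMM, 75.7% with library size alone and 45.2% when arms were required to have a mean count of at least 50, which left 39. Against stages 6 and 7 that split was 33.3% with TMM, 33.3% with library size alone and 50% with the stricter filter. Removing 1 library moved the 7 higher calls against stages 6 and 7 to 2 when stage 6 replicate 1 was left out, 4 for stage 5 replicate 1, 13 for stage 7 replicate 2 and 16 for stage 3 replicate 1. The 14 lower calls became 4 without stage 5 replicate 1, 5 without stage 4 replicate 1, 7 without stage 5 replicate 2, and 9 without either stage 2 library or either stage 6 library.

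Set against the mean of the outer groups, each weighted equally, 33 arms differed in the middle stages (38.8%), 22 of them higher (25.9%) and 11 lower (12.9%) by edgeR. Of the 22 higher arms, 20 were above stages 1 to 3 and not called against stages 6 and 7. With 2 libraries per stage, a missing call does not show that there was no peak. Of all 27 arms above stages 1 to 3 only, 9 had a middle mean above both outer means. Of the 11 lower arms, 5 were below stages 1 to 3 only. The higher share of these calls was 66.7% with TMM, 95% with library size alone, 87.9% with miR-286-3p removed from the table before scaling and 36.8% with the stricter filter. The 22 higher calls became 10 without stage 5 replicate 1 and 14 without stage 4 replicate 2 or stage 5 replicate 2. The 11 lower calls became 2 without stage 5 replicate 1, 3 without stage 4 replicate 2, and 7 without stage 3 replicate 2 or stage 6 replicate 2.

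The 5 arms furthest above the outer mean that were not above both groups all had their highest stage mean in stage 4 or stage 5. None of them was called against stages 6 and 7, where miR-14-5p and miR-315-5p had the largest fold changes. miR-14 restrains cell death and acts in fat and hormone signalling in the fly. miR-14-5p had 1151 and 2661 CPM in the stage 4 libraries and 4067 and 2600 CPM in the stage 5 libraries, against 0 to 346 CPM in stages 1 to 3 and 1817, 1892, 1075 and 609 CPM in stages 6 and 7. The middle libraries were above every earlier one, and stage 4 replicate 1 was the only middle library below a later one. Its log2 fold change was 5.51 ± 0.581 against stages 1 to 3 (edgeR adjusted p = 1.75e-07) and 1.01 ± 0.410 against stages 6 and 7 (edgeR adjusted p = 0.0766). Both stage 1 libraries held 0 counts of miR-14-5p, so the first value depends on the prior count. That value was 3.87 with 1 coefficient per group in place of 1 per stage, and 3.74 against stage 3 alone.

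miR-315-5p, which can raise Wingless signalling in flies when overexpressed, comes from a hairpin at 3L:18860971-18861054 on the plus strand of dm6 with no host gene. It had 53594 and 28175 CPM in the stage 4 libraries and 23365 and 18857 CPM in the stage 5 libraries. In stages 1 to 3 it ran from 0 to 7300 CPM with a median of 1543 CPM, and in stages 6 and 7 it had 14965, 16806, 12081 and 25820 CPM. Stage 7 replicate 2 lay above both stage 5 libraries. The log2 fold change was 5.05 ± 0.461 against stages 1 to 3 (edgeR adjusted p = 1.37e-08) and 0.76 ± 0.419 against stages 6 and 7 (edgeR adjusted p = 0.174). It was 2.79 against stage 3 alone and 6.62 against stages 1 to 3 without stage 1 replicate 2.

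The other 3 of these 5 arms had stage 5 means nearer to those of the later stages. These were 356 CPM for miR-87-5p, with 323 CPM in stage 6, and 1222 CPM for miR-276b-3p, with 1193 CPM in stage 7. For miR-31a-5p they were 24130 CPM in stage 5 and 21420 CPM in stage 7. miR-87-5p, from a hairpin known for dendrite regrowth in fly neurons, had 25.6 and 306 CPM in the stage 4 libraries and 486 and 225 CPM in the stage 5 libraries. It had no count in the 6 libraries of stages 1 to 3, and 303, 344, 291 and 207 CPM in stages 6 and 7. Its 60 middle counts against a floor of 3 counts over the earlier group made it at least 13.2-fold higher in stages 4 and 5. miR-276b-3p had 767 and 1389 CPM in the stage 4 libraries and 1216 and 1228 CPM in the stage 5 libraries, against a median of 16.6 CPM in stages 1 to 3 and 995, 1187, 754 and 1632 CPM in stages 6 and 7. It differs little in sequence from miR-276a-3p, and how shared reads were assigned is not given in the sources used here. miR-31a-5p had 18726 and 25844 CPM in the stage 4 libraries and 23454 and 24815 CPM in the stage 5 libraries. It ran from 189 to 2641 CPM in stages 1 to 3, and had 19377, 19455, 20845 and 22000 CPM in stages 6 and 7. Stage 4 replicate 1 was below all 4 later libraries, and the other 3 middle libraries were above them. Its log2 fold change was 4.77 ± 0.291 against stages 1 to 3 (edgeR adjusted p = 9.03e-11) and 0.19 against stages 6 and 7 (edgeR adjusted p = 0.634).

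The 5 arms furthest below the outer mean that were not below both groups were miR-92b-3p, miR-92a-3p, miR-9b-5p, miR-6-3p and miR-9c-5p, all of them below stages 1 to 3 only. Their mean shares of the counts in stages 1 to 3 ran from 0.103% for miR-9b-5p to 10.8% for miR-92b-3p. miR-92a and miR-92b share a host gene, jigr1, and act in neuroblast maintenance. Their 3p arms are alike in sequence, and how reads shared by them were assigned is not given in the sources used here. miR-92b-3p had 34510 and 18603 CPM in the stage 4 libraries and 8754 and 10340 CPM in the stage 5 libraries, with 11202, 14827, 14975 and 18569 CPM in stages 6 and 7. The earlier libraries had 145911 to 178159 CPM, and the log2 fold change was -3.30 ± 0.234 against stages 1 to 3 (edgeR adjusted p = 3.77e-10) and 0.11 against stages 6 and 7 (edgeR adjusted p = 0.723). miR-92a-3p had 1740 and 942 CPM in the stage 4 libraries and 287 and 328 CPM in the stage 5 libraries, against 4229.5 to 6382 CPM in stages 1 to 3 and 130 to 452 CPM in stages 6 and 7. For both arms the stage 5 level, not the stage 4 level, was the one at or below the later stages. The outer-mean log2 fold changes of miR-9b-5p and miR-9c-5p, from an intron of grp, were -1.02 and -0.75, and that of miR-6-3p, of the miR-309 cluster, was -0.86. Each of these 3 was lost with library size alone, at -0.53, -0.24 and -0.34 with edgeR adjusted p of 0.241, 0.436 and 0.194.

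For the miR-14 hairpin the share of the 5p arm was highest in the middle of the time course, and this ratio within a library does not depend on scaling. The 5p arm made up 29.2% and 43.4% of miR-14 counts in the stage 4 libraries and 52.7% and 39.2% in the stage 5 libraries. In stages 1 to 3 its share ran from 0% to 15.7%, with 2 libraries at 0 of 87 and 0 of 56 counts, and in stages 6 and 7 it was 17.5%, 22.3%, 13.8% and 4.66%. All 4 middle libraries were above all 10 outer ones. The means were 41.1 ± 9.75% in stages 4 and 5 (SD, n = 4), 5.45 ± 6.43% in stages 1 to 3 (n = 6) and 14.6 ± 7.47% in stages 6 and 7 (n = 4). Pooled over libraries, 582 counts were 5p and 766 were 3p in the middle (43.2% 5p, exact 95% interval 40.5 to 45.9%), against 4.34% (2.86 to 6.30%) earlier and 12.2% (10.9 to 13.5%) later, and these intervals cover counting error only.

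The miR-14 share was chosen after its values were seen, as the hairpin out of 15 with both arms tested whose middle libraries lay above all outer ones. An exact two-sided permutation test over libraries gave p = 0.00952 against stages 1 to 3 and p = 0.0286 against stages 6 and 7, each the smallest that the design allows. Adjusted over the 27 tests made on these hairpins, both were 0.110. As the hairpin was picked for this separation, the smallest p in each test followed from the choice. The same smallest p was reached by mir-9b against stages 1 to 3, and by bantam, mir-11, mir-8 and mir-263a against stages 6 and 7. In these comparisons the middle 5p share was lower for mir-9b and mir-263a and higher for the others. The test also takes the 2 libraries of a stage as independent of each other. Without 1 library at a time the difference ran from 31.8 to 39.7 percentage points against stages 1 to 3 and from 22.7 to 30.5 points against stages 6 and 7. miR-14-3p had 2788, 3473, 3647 and 4033 CPM in the middle libraries, against 1862 to 6091 CPM in stages 1 to 3 and 8564, 6588, 6714 and 12457 CPM in stages 6 and 7. Its log2 fold change was -0.05 ± 0.271 against stages 1 to 3 (edgeR adjusted p = 0.867) and -1.29 ± 0.296 against stages 6 and 7 (edgeR adjusted p = 0.00456). Without stage 4 replicate 1 or stage 5 replicate 1 the second call was lost, with edgeR adjusted p of 0.0706 and 0.102. Against stages 1 to 3 its direction turned with the scaling. With library size alone miR-14-3p was higher in the middle stages, at 0.92 with an edgeR adjusted p of 0.00317. With arms of a mean count of at least 50 it was lower, at -0.78 with an edgeR adjusted p of 0.0180, and it was then below both outer groups.

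**Figure D3:**
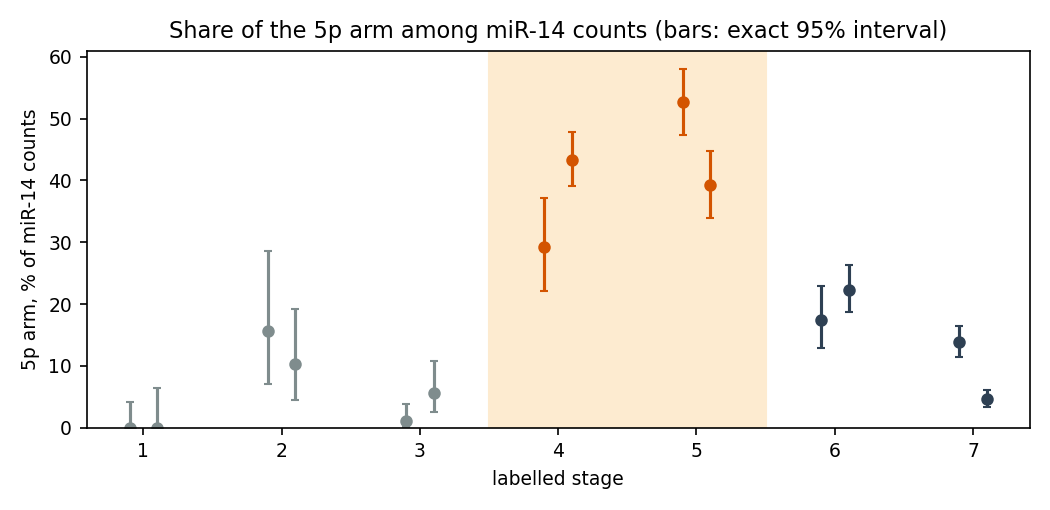
Share of the 5p arm among miR-14 counts (percent, y axis) in each library against the labelled stage, with exact 95% intervals for counting error. The 4 libraries of stages 4 and 5 sit between 29.2% and 52.7%, and the 10 outer libraries sit between 0% and 22.3%.

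Stages 4 and 5 were not alike in their distance to the later stages. Stage 4 alone differed from stages 6 and 7 in 41 arms by edgeR, 21 higher and 20 lower. Stage 5 alone differed from them in 0 arms by edgeR's quasi-likelihood test, where 8 arms had an unadjusted p under 0.05 and the smallest adjusted p was 0.0554, and in 2 arms by DESeq2, both lower. Against stages 1 to 3 the stages were closer to each other, with 31 higher and 19 lower arms for stage 4 and 39 higher and 23 lower for stage 5. Of the 21 arms higher in stage 4 than in stages 6 and 7, 13 were still below stages 1 to 3, and of the 20 lower ones, 6 were already above stages 1 to 3. An arm had to pass both comparisons to count as transient, and 4 did so for stage 4 alone. These were miR-124-5p and miR-315-5p above both, and miR-33-5p and miR-970-3p below both. DESeq2 gave 2 arms above both and 0 below both for stage 4 alone. For miR-315-5p the log2 fold change of stage 4 was 5.53 ± 0.50 against stages 1 to 3 (edgeR adjusted p = 2.1e-08) and 1.24 ± 0.494 against stages 6 and 7 (edgeR adjusted p = 0.0447). For miR-124-5p they were 2.49 ± 0.597 and 2.5 ± 0.551, with edgeR adjusted p of 0.00193 and 0.00190. No arm was called transient for stage 5 alone by edgeR or DESeq2.

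**Figure D4:**
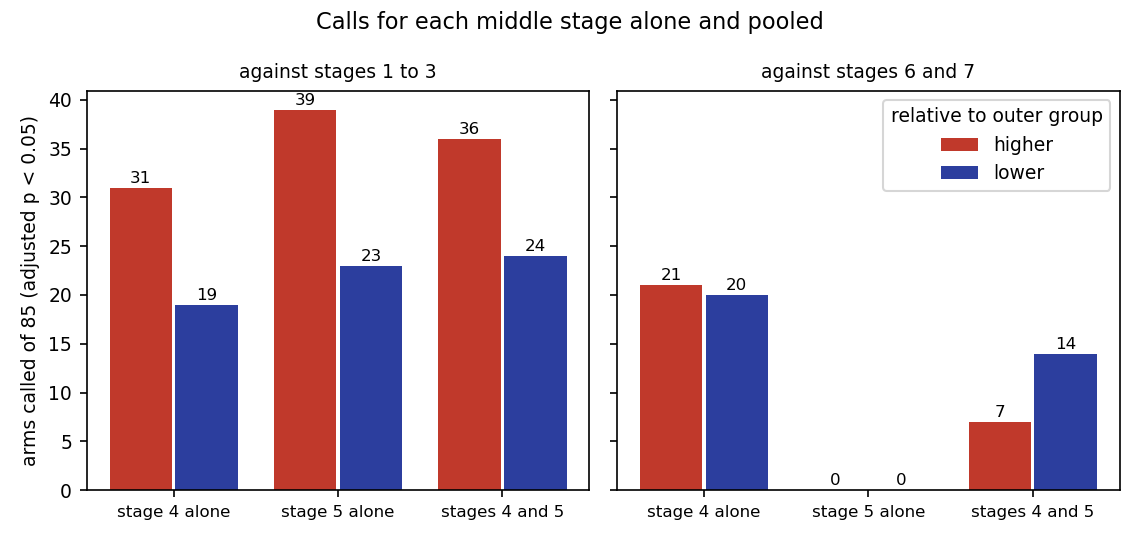
Number of the 85 tested arms with an edgeR adjusted p under 0.05, higher (red) and lower (blue), for stage 4 alone, stage 5 alone and both pooled, against stages 1 to 3 (left) and against stages 6 and 7 (right). The right panel shows 21 and 20 arms for stage 4 and 0 for stage 5.

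Tested directly, stage 5 differed from stage 4 in 12 of the 85 arms (14.1%), 5 higher (5.88%) and 7 lower (8.24%), by edgeR with Benjamini-Hochberg adjustment, with a median log2 fold change of 0.05 over all arms. The 5 arms that were higher in stage 5 were miR-284-5p, miR-957-3p, miR-927-5p, miR-277-3p and miR-133-3p. miR-284-5p, whose hairpin sits in a 3′ untranslated exon of Octbeta2R, had 59 and 41 counts in the stage 5 libraries, against 0 and 7 in the stage 4 libraries. miR-957-3p had 6 and 10 counts in stage 5, against 0 and 1 in stage 4, a ratio of 21.1 with an exact 95% counting interval of 3.28 to 884. miR-927-5p, from an intron of mmd, had 26 and 23 counts in stage 5, against 3 and 1 in stage 4. The first 3 of these arms had no count in stages 1 to 3, so stage 4 was where they were first counted.

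miR-277-3p, which controls branched-chain amino acid breakdown in the fly, had 1724 and 1269 CPM in stage 5, against 25.6 and 235 CPM in stage 4. Its log2 fold change of stage 5 over stage 4 was 3.32 ± 0.745 with an edgeR adjusted p of 0.00580. miR-133-3p, of a muscle microRNA family, had 531 and 921 CPM in stage 5, against 128 and 130 CPM in stage 4, a log2 fold change of 2.47 ± 0.653 with an edgeR adjusted p of 0.0133. Its stage 4 libraries were at the level of stages 1 to 3, and the pooled middle group did not pass the test against stages 1 to 3, at 1.04 with an edgeR adjusted p of 0.0575.

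The 7 arms that were lower in stage 5 were all lower in the pooled middle stages than in stages 1 to 3. miR-275-3p, whose mosquito counterpart acts in blood digestion, had 332 and 409 CPM in stage 5, against 3223 and 1378 CPM in stage 4. miR-311-3p and miR-312-3p of the miR-310 cluster, a group of related arms whose reads may be shared, had 597 and 307 CPM and 1923 and 2825 CPM in stage 5, against 3249 and 1954 CPM and 13277 and 8089 CPM in stage 4. Their log2 fold changes were -2.61 ± 0.578 for miR-275-3p, -2.51 ± 0.460 for miR-311-3p and -2.17 ± 0.478 for miR-312-3p, with edgeR adjusted p of 0.00493, 0.00239 and 0.00493. miR-92a-3p and miR-92b-3p fell by 2.10 and 1.47 on the log2 scale, with edgeR adjusted p of 0.0124 and 0.00493. The other two were miR-6-3p at -1.41 and miR-286-3p at -1.17, both of the miR-309 cluster, with edgeR adjusted p of 0.0162 and 0.0244. Each stage had 2 libraries, and the counts of calls were fragile. Without stage 4 replicate 1, 1 arm was higher and 1 lower, while leaving out stage 5 replicate 1 gave 0 higher and 1 lower, and leaving out stage 5 replicate 2 gave 4 lower.

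**Figure D5:**
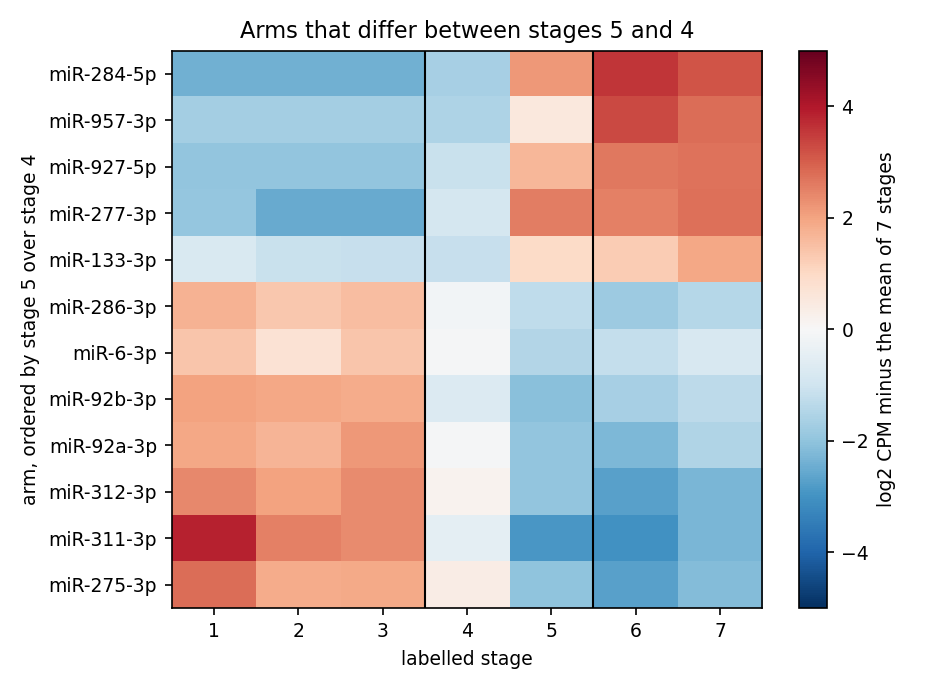
Stage means of log2 CPM (n = 2 libraries) minus the mean of the 7 stages, for the 12 arms that differed between stages 5 and 4, ordered by the fold change of stage 5 over stage 4, with the labelled stage on the x axis and lines around stages 4 and 5. The 5 upper arms are red from stage 5 on and the 7 lower arms are red up to stage 3, with paler colours or a change of colour at stages 4 and 5.

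By share of counts, the libraries of stages 4 and 5 were led by miR-286-3p, the main product of the miR-309 cluster, at 37.7% and 30.3% in stage 4 and 16.9% and 20.2% in stage 5. It averaged 26.3 ± 9.51% in stages 4 and 5 (SD, n = 4), 60.1 ± 3.5% in stages 1 to 3 (n = 6) and 13.6 ± 6.15% in stages 6 and 7 (n = 4). bantam-3p, a growth promoter and inhibitor of cell death, was next by the mean of the 4 libraries, at 6.01% and 7.95% in stage 4 and 15.8% and 14.8% in stage 5. It averaged 11.1 ± 4.88% in the middle, 1.83 ± 0.432% earlier and 17.1 ± 3.76% later. The other leading arms were miR-8-3p, of the miR-200 family, at 9.19 ± 3.91%, miR-10-5p, from the Hox gene complex, at 9.16 ± 1.03%, and miR-263a-5p, which protects sensory bristles, at 8.61 ± 1.69%. Earlier stages held 0.350 ± 0.152% of miR-8-3p, 3.93 ± 0.778% of miR-10-5p and 2.23 ± 1.68% of miR-263a-5p. Later stages held 13.7 ± 2.59%, 11.2 ± 2.08% and 9.36 ± 1.79% of these 3 arms in the same order. A fall in miR-286-3p raises the shares of all other arms, and the part of this in the shares was not tested.

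Arms were also grouped by genome cluster or by the tissue they are known from. Over all 85 arms, 42.4% were higher and 28.2% lower than in stages 1 to 3, and 8.24% were higher and 16.5% lower than in stages 6 and 7, and each list's count stands beside these shares. In the miR-309 cluster, each of 7 tested arms was lower in the middle stages than in stages 1 to 3, and 2 of the 7 were higher than in stages 6 and 7. Their median log2 fold changes were -2.22 and 0.74. miR-3-3p of this cluster had 6 and 9 counts in the stage 4 libraries and 2 and 1 in the stage 5 libraries, 7.10 times its pooled CPM in stages 6 and 7 (exact 95% counting interval 2.07 to 37.6). Of the 5 tested arms of the miR-310 cluster, 4 were lower than in stages 1 to 3 and 2 were higher than in stages 6 and 7, with medians of -3.14 and 1.49. In the miR-306/79/9 cluster 3 of 4 arms were lower than in stages 1 to 3, with a median of -1.87, and none of the 4 passed the edgeR test against stages 6 and 7, with a median of 0.39. Among 8 arms of hairpins of the K-box family, known to repress pro-apoptotic and Notch target genes, 2 were lower than in stages 1 to 3, with medians of -0.18 and 0.29 against the outer groups. The list includes 3 opposite (5p) arms, and the 2 lower ones were miR-6-3p and the 5p arm miR-11-5p.

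The nervous system list held 4 tested arms, miR-124-5p, miR-315-5p, miR-87-5p and miR-1000-5p. All 4 were higher in the middle stages than in stages 1 to 3 and higher than the outer mean, and 1 of the 4 was higher than in stages 6 and 7. The shares over all arms were 42.4%, 25.9% and 8.24%, and the median log2 fold changes of the list were 4.47 against stages 1 to 3 and 0.35 against stages 6 and 7. With miR-87-5p at its lower bound and the other arms as fitted, the first median was 3.80. Those other arms had 0 to 3 counts in each stage 1 library, so their fitted values against stages 1 to 3 are also uncertain. With 1 coefficient per group in place of 1 per stage, miR-315-5p was at 3.86 and miR-124-5p at 0.69. Together these arms and those of the list that were not tested made up 3.14% to 6.47% of the counts of the middle libraries, 0% to 0.610% of the earlier ones and 1.81% to 3.22% of the later ones. miR-315-5p held most of this, at 4.00 ± 1.48% in the middle, 0.152 ± 0.192% earlier and 2.23 ± 0.581% later. Of the 2 muscle arms, miR-133-3p and miR-1-3p, 1 was higher than in stages 1 to 3 and 1 was lower than in stages 6 and 7. miR-1-3p had 128 and 212 CPM in stage 4 and 398 and 246 CPM in stage 5, against 0 to 130 CPM in stages 1 to 3 and 155 to 519 CPM in stages 6 and 7. miR-1-3p was the one higher than in stages 1 to 3, at 3.01 ± 0.867 on the log2 scale with an edgeR adjusted p of 0.00431. Both stage 1 libraries held 0 counts of miR-1-3p, so this value depends on the prior count.

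Of the 6 growth and metabolism arms, 4 were higher than in stages 1 to 3 (42.4% over all arms) and 4 were lower than in stages 6 and 7 (16.5% over all arms), with medians of 1.90 and -0.93. bantam-3p, miR-277-3p and miR-14-3p were among the lower ones together with miR-33-5p. Of the 10 epithelium and gut arms, 4 were higher and 3 lower than in stages 1 to 3, and 1 was higher and 2 lower than in stages 6 and 7, close to the shares over all arms, with medians of 0.83 and -0.25. The 7 sensory organ arms had 2 higher and 1 lower against stages 1 to 3 and none called by edgeR against stages 6 and 7, with medians of 0.21 and 0.26. Both miR-276 arms and both miR-12 cluster arms were higher than in stages 1 to 3, with medians of 5.22 and 1.60, and not called against stages 6 and 7, with medians of -0.17 and -0.03. The 4 Hox cluster arms had 1 higher against stages 1 to 3, with medians of 0.62 and -0.51. Of the 4 arms hosted in cell cycle genes, 2 were lower than in stages 1 to 3 and 1, miR-998-5p of an E2f1 intron, was higher than in stages 6 and 7. miR-998-5p had 358 and 200 CPM in stage 4 and 398 and 164 CPM in stage 5, against 66.2 to 779 CPM in stages 1 to 3 and 60.3 to 90.6 CPM in stages 6 and 7. Its log2 fold change was 1.74 ± 0.557 against stages 6 and 7, with an edgeR adjusted p of 0.0286.

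Among 27 tested arms of families shared across bilaterian animals, 13 were higher and 5 lower than in stages 1 to 3, and 1 was higher and 4 lower than in stages 6 and 7. Over all arms, 42.4% were higher and 28.2% lower than in stages 1 to 3, and 8.24% and 16.5% than in stages 6 and 7. The medians of the 27 were 1.04 and -0.34, beside 0.71 and -0.02 over all 85 arms. No arm of the let-7 complex, which times later development in flies, passed the filter, with 16 counts in the middle, 15 earlier and 21 later. The mirtron arm miR-1010-3p and the testis-enriched arm miR-982-5p were not called in either comparison.

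Of the 8 arms that lay between the groups and rose, several were hardly counted in stages 1 to 3. miR-284-5p had 107 counts in the middle libraries against 0 earlier, at least 23.5-fold higher. miR-956-3p had 0 and 600 CPM in the stage 4 libraries and 5173 and 1003 CPM in the stage 5 libraries, against 1 count in stages 1 to 3, a ratio of 220 with an exact 95% counting interval of 39.3 to 8728. Its later libraries had 9126, 8343, 17297 and 1528 CPM. miR-277-3p had a ratio of 106 over stages 1 to 3, where it also had 1 count, with an interval of 18.8 to 4221. miR-927-5p was at least 11.7-fold and miR-957-3p at least 3.74-fold higher than in stages 1 to 3. bantam-3p, by contrast, was abundant throughout, with a log2 fold change of 1.54 ± 0.205 against stages 1 to 3 and -0.76 ± 0.228 against stages 6 and 7, the second with an edgeR adjusted p of 0.0221. miR-8-3p was not among the 8, at 3.75 ± 0.250 (edgeR adjusted p = 2.2e-10) against stages 1 to 3 and -0.68 (edgeR adjusted p = 0.0633) against stages 6 and 7.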

How the data were processed

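Small RNA was sequenced from 14 whole-embryo libraries, 2 for each of 7 labelled stages. The deposited table holds the authors' raw counts per miRNA arm, with no normalization; per the submitters' processing notes, Bowtie, HTSeq and the dm6 build were used, with versions not given in the sources used here. The libraries were made from 1 ng of total RNA with 15 cycles of PCR, per the labels' protocols. Molecular identifiers are not mentioned, so intervals and floors cover counting error only. All 14 libraries were fitted in edgeR 4.0.16 (R 4.3.3, limma 3.58.1) with TMM, its filter by expression, 1 coefficient per stage, 7 residual degrees of freedom and the quasi-likelihood test. Adjusted p-values are Benjamini-Hochberg over 85 arms, with a threshold of 0.05. The SE of a log2 fold change is its absolute value divided by the square root of the test's F statistic. It was not estimated separately, and is only approximate where a stage had no counts. Outer stages were averaged with equal weight within a group, and both groups with a weight of 0.5. The procedure was tested on simulated data in which arms changed only in the middle stages and the outer groups were alike. The simulation therefore does not show how the calls behave where the outer groups differ, as they did here. Lower bounds use a floor of 3 counts over a group. Hairpin positions come from an Ensembl annotation, in which 81 of the 85 arms were matched. Figures were drawn with matplotlib 3.10.9 and pandas 2.3.3 in Python 3.11.15.

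No pair of libraries of a stage agreed within counting noise (chi-square per degree of freedom of 2.13 to 139), so each was counted as a library. This does not show that they are separate collections. Replicate numbers follow accession order and pair nothing. The named arms were all arms above or below both groups, up to 5 per direction against the outer mean and between stages 5 and 4, the 5 most abundant, up to 4 per list, and the 3 most alike in profile. Arms outside this rule that are named were chosen after their values were seen. The members and the 19 lists were chosen with earlier results of these data known. Alternatives were DESeq2 1.42.0, DESeq2 size factors, library size alone, removal of miR-286-3p, no filter, a mean count of at least 50, 3 coefficients, each middle stage alone, the nearest outer stages, and leaving out libraries.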

Additional observations from a re-analysis of the deposited data

Results flagged for a closer look

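Of 80 groups of 4 to 6 libraries checked for a library far from the others, 6 held one. Chance flags about 1 in 20 groups whose values come from 1 normal distribution. The groups here pool stages that differ and some hold zeros, so that rate need not apply to them. In stages 1 to 3, stage 3 replicate 2 stood high for miR-276b-3p, at 159.6 CPM with the others at 0 to 47.2 CPM. It also stood high for miR-315-5p, at 7300 CPM (7299.6) with the others at 0 to 2124 CPM. Stage 1 replicate 2 held the single count of miR-277-3p in that group, worth 57.2 CPM. In stages 6 and 7, stage 6 replicate 1 was low for miR-92a-3p, at 129.8 CPM with the others at 427 to 452 CPM. Stage 7 replicate 2 was low for miR-8-3p, at 83468 CPM with the others at 109139 to 112889 CPM. The same library was high for miR-263a-5p, at 102438 CPM with the others at 61890 to 65519 CPM. None of the middle libraries stood apart in this check.

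The effects of stage 5 and stage 4, each against the same outer groups, differed by a test of the difference itself, edgeR's quasi-likelihood test of stage 5 over stage 4. On the log2 scale the difference was 4.30 for miR-284-5p, 4.01 for miR-957-3p, 3.78 for miR-927-5p, 3.32 for miR-277-3p and 2.47 for miR-133-3p. It was -2.61 for miR-275-3p, -2.51 for miR-311-3p, -2.17 for miR-312-3p, -2.10 for miR-92a-3p and -1.47 for miR-92b-3p. The fitted values of miR-284-5p, miR-957-3p and miR-927-5p rest on 7, 1 and 4 counts in stage 4 and depend on the prior count. Of these 10 arms, miR-311-3p was the only one whose call held in every alternative that was run.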

How the results depend on the processing

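No paired analysis was possible because the labels carry no replicate numbers. The 1 arm above both groups became 0 with 3 coefficients, for stage 5 alone and against the nearest outer stages, and 2 for stage 4 alone. A filter of 50 mean counts also gave 0 above both, but it removed miR-124-5p, miR-33-5p and miR-970-3p before any test. Their calls could therefore not be tried under it. It left 39 arms, so all counts of calls under it are over fewer arms. The 2 arms below both became 0 with DESeq2, DESeq2 size factors, library size alone, miR-286-3p removed, no filter, 3 coefficients, stage 5 alone and the nearest outer stages. The count was 1 with a mean count of at least 50, where the arm was another one, miR-14-3p, and 1 (miR-970-3p) without the pair of stage 4 replicate 1 and stage 7 replicate 2. The 1 arm with all middle libraries below all 10 outer ones became 0 with library size alone. Against stages 1 to 3, higher calls (36) became 14 under that filter. Against stages 6 and 7, higher calls (7) became 0 with 3 coefficients and for stage 5 alone, 21 for stage 4 alone and 4 for the nearest stages. Lower calls (14) became 5 under the filter of 50 and 0 with 3 coefficients and for stage 5 alone. With 3 coefficients and 11 residual degrees of freedom, 26 arms had an unadjusted p under 0.05 against stages 6 and 7, and DESeq2 called 2 higher and 4 lower. Against the outer mean, higher calls (22) became 38 with library size alone, 7 under the filter of 50, 10 with 3 coefficients, 11 for stage 4 alone and 8 for the nearest stages. Lower calls (11) became 2 with library size alone and with 3 coefficients, 4 with miR-286-3p removed and with no filter, 1 for stage 4 alone and 7 for the nearest stages. Between stages 5 and 4, higher calls (5) became 1 with a mean count of at least 50 and 9 with DESeq2, and lower calls (7) became 3 without that pair of libraries.

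Without 1 library at a time, above both ran from 0 to 3, below both from 0 to 2, higher and lower against stages 1 to 3 from 30 to 39 and 22 to 30, against stages 6 and 7 from 2 to 16 and 4 to 20, against the outer mean from 10 to 29 and 2 to 16, and between stages 5 and 4 from 0 to 7 and 1 to 10. For the called values of named arms, 733 of 910 under other settings kept their direction and side of the threshold, 172 lost their call and 5 changed sign. The sign changed with library size alone against stages 1 to 3 for miR-33-5p (0.15), miR-11-5p (0.15) and miR-996-3p (0.016), for stage 5 alone against stages 6 and 7 for miR-311-3p (-0.29), and for stage 4 alone against the outer mean for miR-312-3p (0.26). The cause was not tested. The settings compared next are library size alone, DESeq2 size factors, miR-286-3p removed and a mean count of at least 50, which left 39 arms. In that order, the median shift per arm in log2 fold change was 0.96, 0.36, 0.35 and -0.70 against stages 1 to 3. Against the outer mean it was 0.50, 0.14, 0.21 and -0.31. Each median is over the arms tested in both fits. At 31330 counts, an arm of 1 count in a middle library weighs 20.5 CPM, so changes of rarer arms were not detectable at this depth.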

Other observations

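Among the 166 arms that had counts but did not pass the filter, 3 had a pooled middle level whose exact 95% counting interval lay above the intervals of both outer groups, and 0 lay below both. They were found after looking at all 166, and no test over libraries was made. Stage 4 replicate 2 held most of the middle counts of each, 22 of miR-1010-5p, 14 of miR-968-3p and 7 of miR-375-5p, and without that library none of the 3 intervals lay above both outer ones (153, 20.4 and 51.1 CPM in the other 3 middle libraries). miR-1010-5p, the partner of the mirtron arm miR-1010-3p, had 37 counts in stages 4 and 5, against 11 in stages 1 to 3 and 9 in stages 6 and 7. These were 226 CPM of the pooled library totals (159 to 311 CPM) in the middle, 52.3 CPM (26.1 to 93.5 CPM) earlier and 45.1 CPM (20.6 to 85.6 CPM) later. miR-968-3p had 16 counts in the middle, 3 earlier and 1 later, or 97.6, 14.3 and 5.01 CPM. miR-375-5p had 12 counts in the middle, 0 earlier and 1 later, while its partner miR-375-3p, of a family known from endocrine cells in vertebrates, had 51.2 and 153 CPM in stage 4, 442 and 40.9 CPM in stage 5, none in stages 1 to 3 and 216 to 603 CPM in stages 6 and 7. A further 15 arms were counted in stages 4 and 5 only, with at most 4 counts each.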
